A study of Mus musculus with 16 samples.

Results

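The genes described here are 49 genes of DNA replication and deoxynucleotide synthesis, followed through LPS stimulation of mouse macrophages on gene expression arrays. They were chosen by name from a list of replication factors, each represented by the brightest of its probes on the array, and all 49 were among the 17659 genes that could be tested. Bone marrow of male C57BL/6Jax mice was kept in M-CSF (10 ng/mL) for 9 days, and RNA was taken from the adherent macrophages before stimulation (0 h) or after 6, 12 or 24 h with LPS at 100 ng/mL. Wild-type (WT) cells and cells lacking the microRNA miR-155 (KO) were treated alike. There were 8 groups with 2 samples in each, and every sample had a single-colour array to itself. The labels name neither the way the miR-155 locus was disrupted nor whether the 2 samples of a group came from separate mice or cultures, so the p-values measure the spread between these samples, which may be technical. The mature microRNA that the KO cells lack is shown with its seed in capitals, as RefSeq gives it on GRCm38.p6 (chr16:84714143-84714165, forward strand), because it defines the second genotype.
mmu-miR-155-5p: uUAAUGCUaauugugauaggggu

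Before a cell copies its genome, the origin recognition complex, Cdc6 and Cdt1 load the MCM helicase onto DNA, and geminin blocks any further loading. The kinase Cdc7 with its partner Dbf4, together with Mcm10, Cdc45 and the GINS complex, then turns the loaded helicase into a moving fork, where primase and the DNA polymerases work behind the sliding clamp PCNA and its RFC loader. Deoxynucleotides are supplied by ribonucleotide reductase (Rrm1 and Rrm2), thymidine kinase, thymidylate synthase and dUTPase, and many of these genes are transcribed under the control of E2F factors at the entry to S phase. M-CSF drives the proliferation of marrow-derived macrophages and their precursors, and LPS is known to stop that proliferation.

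Levels are log2 signals relative to the 75th percentile of the same array, so a value of 0 lies at that percentile, and they are compared between arrays for 1 probe but never between probes. Arrays differed in brightness, with an upper quartile of 270.8 to 729.9 in raw signal, and in the share of probes that passed the background test, which ran from 56.0% to 67.6%. The 8 arrays numbered 1 were scanned in one session and the 8 numbered 2 in another. Where a pair of array values is given, session 1 comes first. A gene is called when its adjusted p (limma, Benjamini-Hochberg over 17659 genes) is under 0.05. Since session and replicate number coincide and arrays of a session deviated together, the fit with a session term is given beside the other for the counts over all members and wherever it changes a call named here. The macrophage identity of the cells could be read from all 10 macrophage markers listed for it, including Csf1r, Adgre1, Cd68 and Lyz2, each well above background on 16 of 16 arrays. The arrays measured RNA of whole cultures, so fewer cells in S phase and less RNA per cell cannot be told apart.

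Most replication genes were lower after LPS, most deeply at 6 h. Averaged over genotypes, 40 of the 49 genes were highest at 0 h and 29 were lowest at 6 h. Another 10 reached their lowest value at 12 h and 7 at 24 h, and 3 had their lowest value at 0 h. In WT cells the median change from 0 h over the 49 genes was -1.71 at 6 h, -1.18 at 12 h and -0.87 at 24 h, on the log2 scale. In KO cells it was -1.79, -1.28 and -0.75. Without WT 0 h, session 2, the WT medians were -0.70 at 12 h and -0.43 at 24 h, and at 24 h in KO the median was -0.48 without KO 0 h, session 2. With scaling to the array median the 24 h medians were -0.51 in WT and -0.46 in KO, where the median of all genes was 0.33 and 0.26. The median over all genes tested was between -0.03 and 0.06 in the same comparisons.

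In WT cells 22 of 49 members were called lower at 6 h (44.9%, against 12.8% of all genes called lower), 17 at 12 h (34.7%, against 9.67%) and 8 at 24 h (16.3%, against 5.42%). In KO cells 25 were called lower at 6 h (51.0%, against 13.8%), 20 at 12 h (40.8%, against 9.93%) and 8 at 24 h (16.3%, against 4.94%). The single member called higher in any of these 6 comparisons was Ccne1, cyclin E1, in WT at 12 h, where 9.68% of all genes were called higher. With the session term the WT counts were 37, 31 and 23 lower, against 22%, 19% and 14.1% of all genes, and the KO counts were 39, 35 and 24 lower, against 22.7%, 18.8% and 12.5%. That fit also called 2 members higher in each genotype at 6 h, against 23.6% of all genes in WT and 21% in KO, and 2 at 12 h, against 18.6% and 19.6%. The 3 WT comparisons share their 0 h arrays, as do the 3 KO comparisons, so their values are set side by side and not treated as separate evidence. Part of the calls rested on single arrays. With any 1 array left out, 13 of the 22 WT calls at 6 h held throughout (Gmnn, Mcm7, Cdc7, Pold1, Pole2, Rfc1, Rfc4, Rpa1, Chaf1a, Chaf1b, Dnmt1, Rrm2 and Tk1), 5 of the 17 at 12 h and 2 of the 8 at 24 h, and in KO 14 of 25, 11 of 20 and 0 of 8. The lowest count of called members was 13 for WT at 6 h (without WT 6 h, session 1), 5 for WT at 12 h (without WT 12 h, session 1) and 2 for WT at 24 h (without WT 0 h, session 2). For KO it was 14 at 6 h (without KO 6 h, session 1, or KO 0 h, session 2), 12 at 12 h (without KO 12 h, session 1, or KO 0 h, session 2) and 0 at 24 h (without KO 0 h, session 2).

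**Figure D1:**
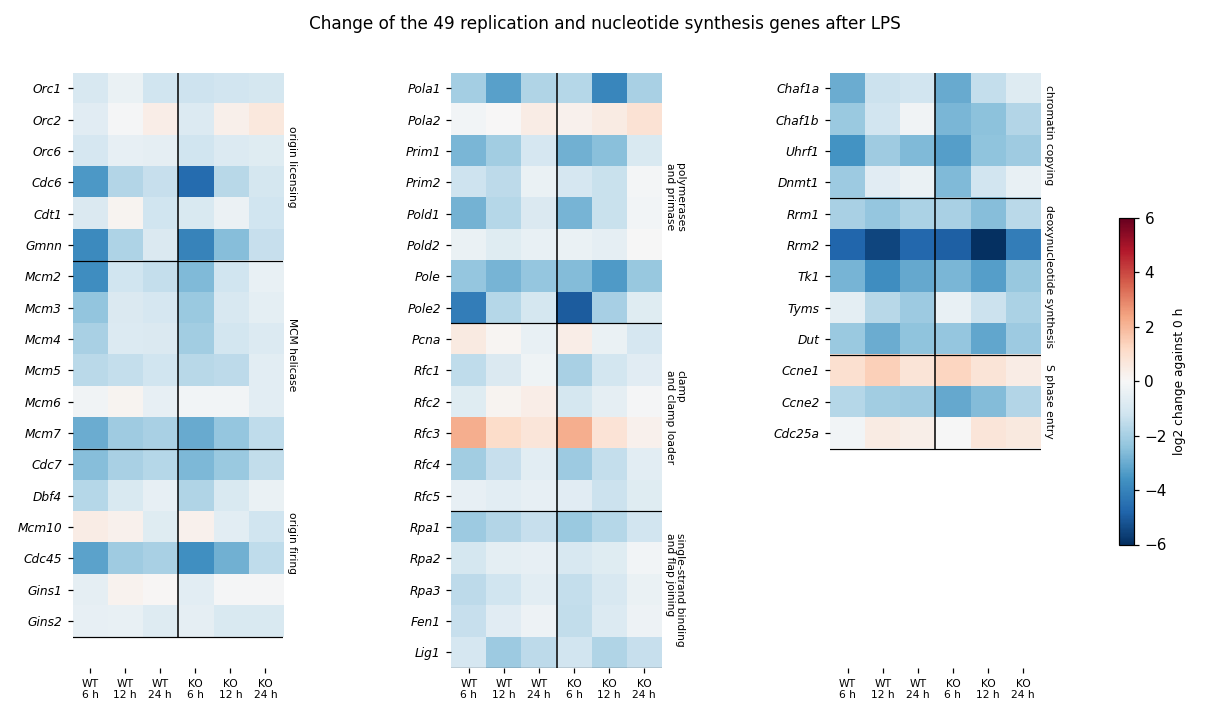
Change of each of the 49 genes against the 0 h group of its genotype (columns: WT and KO at 6, 12 and 24 h of LPS; colour: log2 change, blue lower, red higher), ordered by role. Rrm2 is the darkest row, with -4.15 at KO 24 h and -5.49 at WT 12 h. Its KO 12 h cell shows a signal not well above background. The fall there is 36.1-fold with any dimmer array raised to the lowest signal that passed the background test. Rfc3 and Ccne1 are the rows with the most red.

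**Figure D2:**
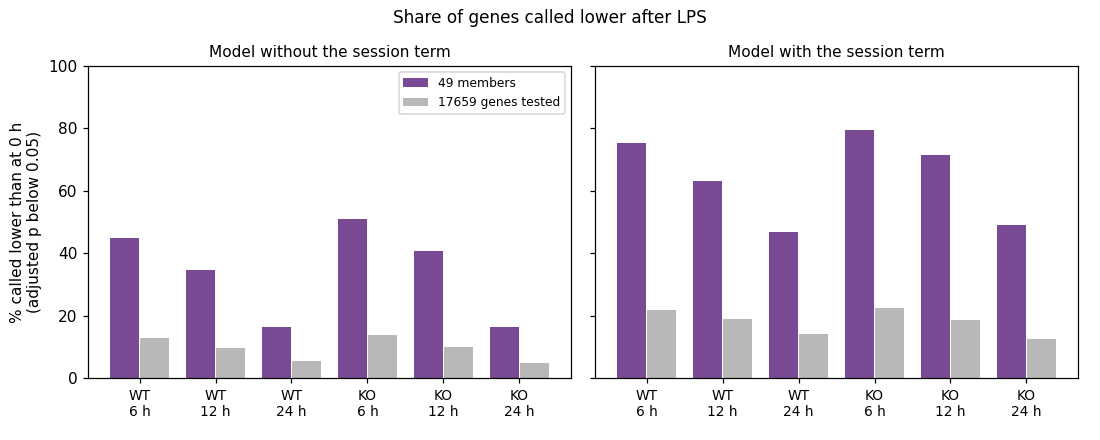
Share of the 49 genes (purple) and of all 17659 genes (grey) called lower than at 0 h, in percent, in the fit without the session term (left) and with it (right). The share of members lies above that of all genes in all 6 comparisons and both fits, from 16.3% against 4.94% (KO, 24 h, without the term) to 79.6% against 22.7% (KO, 6 h, with the term).

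E2F factors are the best-known regulators of these genes, so the 250 bases before each RefSeq transcription start (GRCm38.p6) were searched for E2F-type words, and 5 windows are printed to set sequence beside response. The words were TTTCCCGC, TTTCGCGC, TTTGCCGC and TTTGGCGC on both strands, where matches may overlap. Windows were held for 41 of the 49 members, 51 windows in all, since some genes have more than 1 start. A gene was counted if any of its windows had a word. By that count 10 of the 41 genes (24.4%) had at least 1 word: Cdc25a, Cdc6, Dnmt1, Mcm5, Mcm6, Mcm7, Orc1, Pola1, Rfc3 and Uhrf1. The share was 2.16% of all 27025 genes with a window and 3.58% of the 11317 genes tested here. The CCAAT box, a promoter element bound by NF-Y, was found on either strand in 61.0% of member genes, against 37.5% and 40.3%. TTTGAA, the core of the CHR element that is found in promoters of late cell cycle genes, was found in 14.6%, against 18.3% and 13.5%. Member windows were also richer in G and C (median 61.2%, against 52.4% and 58.8%). In the windows below, written 5′ to 3′ on the strand of the gene and ending at the base before the start, capitals mark E2F-type words.
Cdc6, chr11:98907901-98908150, forward strand: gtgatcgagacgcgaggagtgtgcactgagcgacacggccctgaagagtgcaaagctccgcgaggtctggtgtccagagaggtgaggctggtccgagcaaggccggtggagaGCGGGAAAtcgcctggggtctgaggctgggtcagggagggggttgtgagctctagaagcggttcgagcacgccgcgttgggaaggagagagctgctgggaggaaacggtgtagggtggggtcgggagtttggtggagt
Mcm7, chr5:138171884-138172133, reverse strand: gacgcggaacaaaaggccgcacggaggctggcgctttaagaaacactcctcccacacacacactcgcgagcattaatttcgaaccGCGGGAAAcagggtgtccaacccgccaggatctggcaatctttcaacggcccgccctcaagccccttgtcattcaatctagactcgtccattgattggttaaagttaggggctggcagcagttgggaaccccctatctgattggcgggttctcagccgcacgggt
Mcm6, chr1:128359706-128359955, reverse strand: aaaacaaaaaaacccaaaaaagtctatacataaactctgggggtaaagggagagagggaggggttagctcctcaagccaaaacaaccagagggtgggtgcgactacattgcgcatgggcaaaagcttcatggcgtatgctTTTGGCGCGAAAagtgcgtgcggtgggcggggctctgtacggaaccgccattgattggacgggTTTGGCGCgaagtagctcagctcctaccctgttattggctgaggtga
Rfc3, chr5:151651209-151651458, reverse strand: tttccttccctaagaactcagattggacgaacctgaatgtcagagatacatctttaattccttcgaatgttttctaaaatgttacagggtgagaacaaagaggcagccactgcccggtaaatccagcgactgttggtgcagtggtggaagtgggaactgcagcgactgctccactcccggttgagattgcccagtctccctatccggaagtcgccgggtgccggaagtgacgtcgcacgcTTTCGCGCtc
Rrm2, chr12:24708004-24708253, forward strand: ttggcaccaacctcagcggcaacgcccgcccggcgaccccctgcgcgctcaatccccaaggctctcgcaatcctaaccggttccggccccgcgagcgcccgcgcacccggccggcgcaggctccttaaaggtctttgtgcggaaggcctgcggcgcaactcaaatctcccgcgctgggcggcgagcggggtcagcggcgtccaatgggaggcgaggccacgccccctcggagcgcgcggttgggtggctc
The members with a word did not all respond alike. Cdc6 and Mcm7 each have GCGGGAAA in the printed window, and both were called lower at 6 h in WT and KO. Mcm7 has another window, chr5:138171267-138171516, without a word. Mcm6 has 3 words, of which 2 overlap, and its change was between -0.64 and 0.18 in the 6 comparisons, with 1 call, the -0.64 of KO at 24 h, in the fit with the session term only (adjusted p = 0.043). Rfc3 has TTTCGCGC with its first base 10 bases before the start and was the member with the most positive mean change. Of the other members with a word, Dnmt1 and Uhrf1 were called lower at 6 h in both genotypes. Mcm5 and Pola1 were so with the session term only. Orc1 was called lower at 6 h only in KO and only with that term, and Cdc25a was not called at 6 h. Rrm2 has none of these words and had the largest fall. A match describes letters only, and binding was not measured.

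The genes that license origins fell at 6 h in part. Of 6 members, 2 were called lower at 6 h in each genotype, Cdc6 and Gmnn, and 5 (WT) and 6 (KO) with the session term. Gmnn encodes geminin, which holds back Cdt1. Its log2 signal in WT was 3.73 and 4.22 at 0 h, 0.47 and -0.18 at 6 h, 1.82 and 2.45 at 12 h and 2.96 and 3.25 at 24 h. In KO it was 3.85 and 4.16, then 0.31 and -0.27, 1.11 and 1.79, and 2.45 and 2.82. No array of 6 h overlapped one of 0 h, and every 24 h array lay between these times. The fall at 6 h was 14.2-fold in WT (log2 change -3.83 ± 0.38, standard error, adjusted p = 7.92e-05) and 15.8-fold in KO (-3.99 ± 0.38, adjusted p = 6.08e-05).

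Cdc6, the helicase loader, gave -2.06 and -0.71 in WT at 0 h, -5.52 and -4.19 at 6 h, -3.99 and -2.33 at 12 h and -3.13 and -2.41 at 24 h. In KO the values were -2.09 and -1.0, -7.88 and -4.49, -3.99 and -2.39, and -3.12 and -2.08. All 6 h arrays lay below all 0 h arrays, and only 1 of the 2 arrays at 6 h in each genotype was well above background. The change at 6 h was -3.47 ± 1.08 in WT (adjusted p = 0.0384) and -4.64 ± 1.08 in KO (adjusted p = 0.00985). The WT call was lost without any of 6 arrays (adjusted p up to 0.207, without WT 0 h, session 2), and the KO call without either of 2 (up to 0.0741, without KO 6 h, session 1). With the session term they were 0.00047 and 7.67e-05. The other 4 genes moved less. Orc2 and Orc6, subunits of the origin recognition complex, changed by -0.67 and -1.0 in WT at 6 h, and Cdt1 by -0.87, all called with the session term only. At 24 h Orc2 changed by 0.40 in WT and by 0.64 in KO, and neither was called. Orc1 was close to background, with 12 of 16 arrays above it.

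The 6 MCM subunits, which form the ring of the replicative helicase, had measured changes of unlike size. Differences between the subunits were not tested. Mcm2, Mcm4 and Mcm7 were called lower at 6 h in both genotypes, and with the session term Mcm3 and Mcm5 were too. Mcm7 was 2.74 and 3.29 in WT at 0 h, -0.37 and 0.47 at 6 h, 0.52 and 1.27 at 12 h and 0.95 and 1.20 at 24 h. In KO it was 2.92 and 3.04, -0.56 and 0.51, 0.41 and 0.90, and 1.30 and 1.65. No LPS array reached any 0 h array of its genotype. The fall at 6 h was 7.80-fold in WT (-2.96 ± 0.44, adjusted p = 0.000809) and 8.03-fold in KO (-3.01 ± 0.44, adjusted p = 0.000726). At 24 h the change was -1.94 in WT (adjusted p = 0.0173, but up to 0.139 without any of 3 arrays) and -1.51 in KO (adjusted p = 0.0577, and 0.00171 with the session term). Mcm2 changed by -3.72 ± 0.84 in WT and by -2.67 ± 0.84 in KO at 6 h, calls that ended without either of 2 arrays in WT (adjusted p up to 0.0802) and any of 8 in KO (up to 0.205). Mcm6 stood apart, with changes of -0.19 in WT and -0.16 in KO at 6 h and arrays between 4.53 and 5.56 at both 0 and 6 h.

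Among the 6 factors that fire origins, Cdc7 and Cdc45 were called lower at 6 h in both genotypes. Cdc7, the kinase that phosphorylates the loaded helicase, changed by -2.58 ± 0.53 in WT and by -2.71 ± 0.53 in KO. Its activating subunit Dbf4 changed by -1.71 in WT and by -1.79 in KO, both called with the session term only. Cdc45, which joins the helicase when it starts to move, was -2.59 and -1.64 in WT at 0 h and -5.85 and -4.81 at 6 h. The values were -4.78 and -3.67 at 12 h and -4.89 and -3.25 at 24 h. In KO it was -2.74 and -1.62 at 0 h, -6.11 and -5.64 at 6 h, -6.02 and -4.05 at 12 h and -4.66 and -2.77 at 24 h. No LPS array overlapped the 0 h arrays of its genotype. At 6 h the change in WT was -3.22 ± 0.87 (adjusted p = 0.0208, but 0.13 without WT 0 h, session 2), with 1 of 2 arrays well above background. With another background correction (normexp) it was -0.80 (adjusted p = 0.076). KO at 6 h was not well above background on either array, and the fall there was 11.7-fold with a floor on dim signals. Mcm10 and the GINS subunits Gins1 and Gins2 were not called in any LPS comparison without the session term. Mcm10 changed by 0.44 in WT and by 0.27 in KO at 6 h, without a call in either fit.

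Of the 8 DNA polymerase and primase genes, Pole2, Pold1 and Prim1 were called lower at 6 h in both genotypes. At 12 h Pola1, Pole and Pold1 were called lower in both, Prim1 in KO and Prim2 in WT. Pola1, Pole and Prim2 were with the session term also called lower at 6 h in both genotypes, and differences in time course between these genes were not tested. Pole2, the second subunit of the leading-strand polymerase epsilon, gave -2.0 and -0.55 in WT at 0 h, -5.85 and -5.00 at 6 h, -3.44 and -2.57 at 12 h and -2.55 and -2.12 at 24 h. For KO the values were -1.64 and -0.62, -6.80 and -5.48, -3.75 and -2.50, and -2.08 and -1.61. The 6 h arrays were the lowest of each genotype by a wide margin. In WT the fall at 6 h was 17.8-fold (-4.15 ± 0.66, adjusted p = 0.00129), with 1 of 2 arrays well above background, and with normexp correction the change was -1.46 (adjusted p = 0.00929). In KO both 6 h arrays were not well above background, and the fall was 22.9-fold with a floor on dim signals. The 24 h arrays lay above the 6 h arrays in both genotypes, and since 3 of the 4 arrays of 6 h were not well above background, the size of that rise is not established (3.70 ± 0.47 as measured, adjusted p = 0.000358).

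Pole, the catalytic subunit of the same enzyme, was 0.23 and 1.31 in WT at 0 h, -2.40 and -0.71 at 6 h, -2.79 and -1.26 at 12 h and -2.19 and -0.90 at 24 h. KO cells gave 0.42 and 1.31, -2.57 and -0.93, -3.24 and -1.81, and -2.04 and -0.76. No LPS array reached a 0 h array, and the level at 24 h was close to that at 6 h, with a change of 0.18 ± 0.62 between them. The change at 12 h was -2.80 ± 0.88 in WT (adjusted p = 0.0497, and 1.61e-05 with the session term) and -3.39 ± 0.88 in KO (adjusted p = 0.0217). The WT call was lost without any of 12 arrays (adjusted p up to 0.249) and the KO call without either of 2 (up to 0.133). Pola1, the catalytic subunit of polymerase alpha, reached its lowest values at 12 h. The change there was -3.25 ± 0.75 in WT (adjusted p = 0.013) and -3.91 ± 0.75 in KO (adjusted p = 0.00486). The WT call was lost without either of 2 arrays, and the change was -2.85 without WT 0 h, session 2. Its arrays went from 0.06 and 0.86 to -3.23 and -2.34 in WT and from 0.09 and 0.53 to -4.08 and -3.13 in KO. Pold1, the catalytic subunit of polymerase delta, fell by 2.85 in WT and by 2.77 in KO at 6 h and its change at 24 h was -0.86 in WT and -0.16 in KO, the latter turning positive with scaling to the array median. Pola2 and Pold2 were not called in any of the 6 comparisons in either fit.

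The clamp and its loader held the clearest exceptions. Pcna, the sliding clamp, was 5.58 and 6.75 in WT at 0 h, 6.39 and 7.05 at 6 h, 6.11 and 6.48 at 12 h and 5.42 and 6.03 at 24 h. The KO arrays gave 5.73 and 6.80, 6.23 and 7.12, 5.73 and 6.04, and 4.84 and 5.62. The 0 h and 6 h arrays overlapped, and the change at 6 h was 0.56 ± 0.53 in WT and 0.41 ± 0.53 in KO, called in neither fit and turned negative in both by quantile normalization. Rfc3, a small subunit of the loader, was -0.92 and -0.05 in WT at 0 h, 1.04 and 2.35 at 6 h, -0.09 and 1.36 at 12 h and -0.21 and 0.73 at 24 h. KO values were -0.85 and -0.07, 0.99 and 2.41, -0.51 and 1.26, and -0.78 and 0.35. Both 6 h arrays lay above both 0 h arrays in each genotype, and within a session the order of the times was the same. The increase at 6 h was 2.18 ± 0.80 in WT (adjusted p = 0.0735) and 2.16 ± 0.80 in KO (adjusted p = 0.0762). With the session term it was called, with adjusted p = 0.000105 and 0.000111.

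The other loader subunits had lower or similar levels. Rfc4 was 1.38 and 1.63 in WT at 0 h, -0.58 and -0.58 at 6 h, -0.26 and 0.54 at 12 h and 0.87 and 0.85 at 24 h. In KO cells the signal was 1.46 and 1.43, -0.48 and -1.01, -0.07 and 0.12, and 0.85 and 0.80. All LPS arrays lay below the 0 h arrays, and the values at 24 h were nearest to them. The fall at 6 h was 4.26-fold in WT (-2.09 ± 0.30, adjusted p = 0.000655) and 4.55-fold in KO (-2.19 ± 0.30, adjusted p = 0.0005). Rfc1, the large subunit, fell by 1.54 in WT and by 1.93 in KO. Rfc2 changed by -0.74 in WT and by -1.06 in KO at 6 h, the KO fall being called. Rfc5 was 2.5 and 2.43 in WT at 0 h, 1.97 and 1.93 at 6 h, 1.56 and 2.06 at 12 h and 2.04 and 1.94 at 24 h. KO gave 2.68 and 2.34, 1.60 and 2.07, 1.01 and 1.45, and 1.63 and 1.91. All LPS arrays lay below the 0 h arrays of their genotype. The change at 12 h was -1.28 ± 0.28 in KO (adjusted p = 0.0103, but up to 0.0744 without either of 2 arrays) and -0.65 ± 0.28 in WT (adjusted p = 0.146), and the genotypes were not called different.

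Single-strand binding and strand-joining factors were also lower. Rpa1, the large subunit of the protein that coats unwound DNA, was 1.70 and 2.47 in WT at 0 h, -0.43 and 0.26 at 6 h, 0.39 and 0.25 at 12 h and 0.62 and 0.79 at 24 h. Without miR-155 it was 1.84 and 2.11, -0.42 and -0.07, 0.34 and 0.16, and 0.86 and 0.76. No LPS array overlapped a 0 h array. It fell 4.49-fold in WT (-2.17 ± 0.32, adjusted p = 0.000845) and 4.66-fold in KO (-2.22 ± 0.32, adjusted p = 0.000716) at 6 h. Rpa3 was called lower at 6 h in both genotypes, and Rpa2 and the flap nuclease Fen1 with the session term only. Lig1, the ligase that seals Okazaki fragments, had its lowest level at 12 h, with a change of -2.16 ± 0.34 in WT and -1.82 ± 0.34 in KO.

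All 4 genes that copy chromatin marks were called lower at 6 h in both genotypes. Chaf1a and Chaf1b encode subunits of the chromatin assembly factor that places histones behind the fork, and Dnmt1 with its recruiter Uhrf1 copies DNA methylation. Uhrf1 was 0.95 and 2.48 in WT at 0 h, -2.76 and -0.99 at 6 h, -0.84 and 0.01 at 12 h and -1.55 and -0.31 at 24 h. For KO the values were 1.17 and 1.95, -2.29 and -1.19, -1.50 and -0.18, and -1.16 and -0.02. No LPS array reached a 0 h array. The change at 6 h was -3.59 ± 0.81 in WT (adjusted p = 0.0084) and -3.30 ± 0.81 in KO (adjusted p = 0.0126), and each call was lost without either of 2 arrays (adjusted p up to 0.0754 and 0.0885). With the session term it was also called lower at 12 and 24 h in both genotypes. Dnmt1 changed by -2.16 ± 0.26 in WT and by -2.63 ± 0.26 in KO at 6 h, and by -0.41 and -0.43 at 24 h, without a call at 24 h.

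Of the 9 role groups, deoxynucleotide synthesis had the lowest median change at 12 and 24 h. Its median change was -2.22, -2.98 and -2.44 in WT and -2.34, -3.10 and -2.17 in KO at 6, 12 and 24 h. Of its 5 genes, 4, 5 and 5 were called lower in WT and 4 at each time in KO, and with the session term 5 at each time in WT and 4, 5 and 5 in KO. Rrm2, the regulated subunit of ribonucleotide reductase (probe at chr12:25398619-25398675, mm9), had the largest fall of the 49 genes. Its log2 signal in WT was -0.73 and 0.68 at 0 h, -5.19 and -4.35 at 6 h, -6.02 and -5.01 at 12 h and -5.06 and -4.38 at 24 h. KO cells gave -0.42 and 0.16, -5.20 and -4.85, -7.07 and -5.11, and -4.99 and -3.57. No LPS array overlapped the 0 h arrays. In WT it fell 26.9-fold at 6 h (-4.75 ± 0.74, adjusted p = 0.00112), 45-fold at 12 h (-5.49 ± 0.74, adjusted p = 0.000661) and 25.9-fold at 24 h (-4.70 ± 0.74, adjusted p = 0.00262). At 6 and 12 h, 1 of the 2 WT arrays was well above background, and with normexp correction the WT change at 6 h was -2.25 (adjusted p = 0.000376). In KO it fell 29.8-fold at 6 h, where 1 of 2 arrays was above background. At 12 h neither array was, and the fall was 36.1-fold with a floor on dim signals. At 24 h the KO fall was 17.8-fold (adjusted p = 0.00582). That call was lost without KO 0 h, session 2, where the change was -3.86.

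Tk1, the thymidine kinase of the salvage pathway, was 2.16 and 2.93 in WT at 0 h, -0.39 and -0.06 at 6 h, -0.96 and -1.39 at 12 h and -0.70 and -0.33 at 24 h. The KO arrays gave 2.48 and 2.66, -0.25 and -0.11, -0.06 and -1.43, and 0.12 and 0.43. No LPS array overlapped a 0 h array, and the 2 KO arrays of 12 h lay further apart than those of any other group for this gene. The fall was 6.82-fold at 6 h, 13.2-fold at 12 h and 8.34-fold at 24 h in WT, and 6.73-, 9.94- and 4.91-fold in KO. Its 6 h and 12 h calls held with any 1 array left out, as did the WT call at 24 h, while the KO adjusted p at 24 h was 0.0597 without KO 0 h, session 2. Dut, which clears dUTP, was 1.12 and 2.22 in WT at 0 h, -0.99 and -0.12 at 6 h, -1.46 and -1.15 at 12 h and -0.65 and -0.88 at 24 h. KO values were 1.09 and 2.08, -1.30 and -0.21, -1.71 and -1.31, and -0.45 and -0.72. Every LPS array lay below every 0 h array, and within each genotype the lowest arrays were those of 12 h, where the change was -2.98 ± 0.51 in WT (adjusted p = 0.0026) and -3.10 ± 0.51 in KO (adjusted p = 0.00204). Its calls at 6 and 24 h were each lost without 2 or 3 arrays, with adjusted p up to 0.0833 and 0.114 in WT and 0.0624 and 0.176 in KO.

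Tyms, thymidylate synthase, followed a slower course than the others. It was 1.68 and 2.46 in WT at 0 h, 1.22 and 1.74 at 6 h, 0.07 and 0.74 at 12 h and -0.51 and 0.27 at 24 h. In KO cells the signal was 1.75 and 2.14, 1.26 and 1.74, 0.60 and 0.67, and -0.27 and 0.38. The 6 h arrays overlapped the 0 h arrays in WT, and those of 24 h were the lowest within each session of both genotypes. The change in WT was -0.59 ± 0.42 at 6 h (adjusted p = 0.351, and 0.0387 with the session term), -1.67 ± 0.42 at 12 h (adjusted p = 0.0188, but up to 0.145 without either of 2 arrays) and -2.19 ± 0.42 at 24 h (adjusted p = 0.00721, but up to 0.0742). From 6 to 24 h it fell by 1.52 averaged over genotypes (adjusted p = 0.00378). Rrm1, the constant subunit of the reductase, fell by 1.96 in WT and by 1.93 in KO at 6 h and by 2.30 and 2.55 at 12 h.

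The 3 regulators of S phase entry differed in direction. Ccne1 was 0.70 and 1.96 in WT at 0 h, 2.43 and 2.16 at 6 h, 2.62 and 2.86 at 12 h and 2.06 and 2.13 at 24 h. Without miR-155 it was 0.88 and 1.67, 2.43 and 2.72, 1.61 and 2.48, and 1.70 and 1.74. All WT LPS arrays lay above the WT 0 h arrays. The change at 12 h in WT was 1.41 ± 0.44 (adjusted p = 0.0475, and 0.00954 with the session term), and it was not called when any of 11 arrays was left out, with adjusted p up to 0.304 (without WT 0 h, session 1). Ccne2, cyclin E2, was -3.43 and -1.95 in WT at 0 h, -4.21 and -4.58 at 6 h, -5.49 and -4.02 at 12 h and -4.83 and -4.81 at 24 h. For KO the values were -3.16 and -2.10, -6.29 and -5.13, -5.24 and -5.26, and -4.30 and -4.51, and it was not well above background on the KO arrays of 6 and 12 h and on 1 of the 2 WT arrays of 12 h. No LPS array overlapped a 0 h array. The KO fall was 7.14-fold at 6 h with a floor on dim signals and 6.14-fold at 12 h as measured. Neither is a minimum, and normexp correction gave -0.46 for KO at 6 h (adjusted p = 0.375). Cdc25a, the phosphatase that activates the cyclin E kinase, was -0.69 and -0.78 in WT at 0 h, -0.45 and -1.35 at 6 h, -0.16 and -0.30 at 12 h and -0.19 and -0.58 at 24 h. In the KO cells it was -0.86 and -0.73, -0.82 and -0.81, 0.13 and -0.27, and -0.03 and -0.35. The 12 h arrays lay above those of 0 h in both genotypes, and its only call was a rise of 0.72 in KO at 12 h with the session term (adjusted p = 0.0398).

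**Figure D3:**
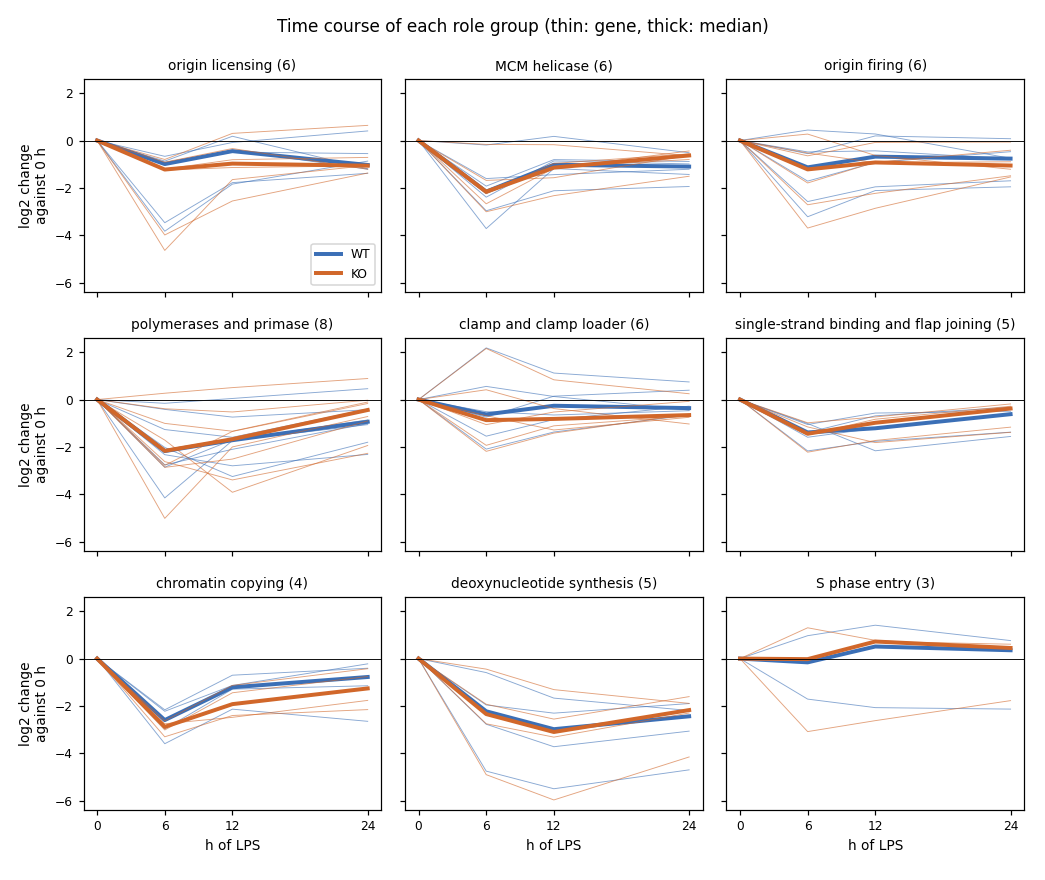
Log2 change against 0 h at 6, 12 and 24 h of LPS for each member (thin lines) and the median of its role group (thick lines), WT in blue and KO in orange; the number of genes is in each title. The medians of the MCM helicase, polymerase and chromatin groups are lowest at 6 h, while that of deoxynucleotide synthesis is lowest at 12 h, at -2.98 in WT and -3.10 in KO.

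**Figure D4:**
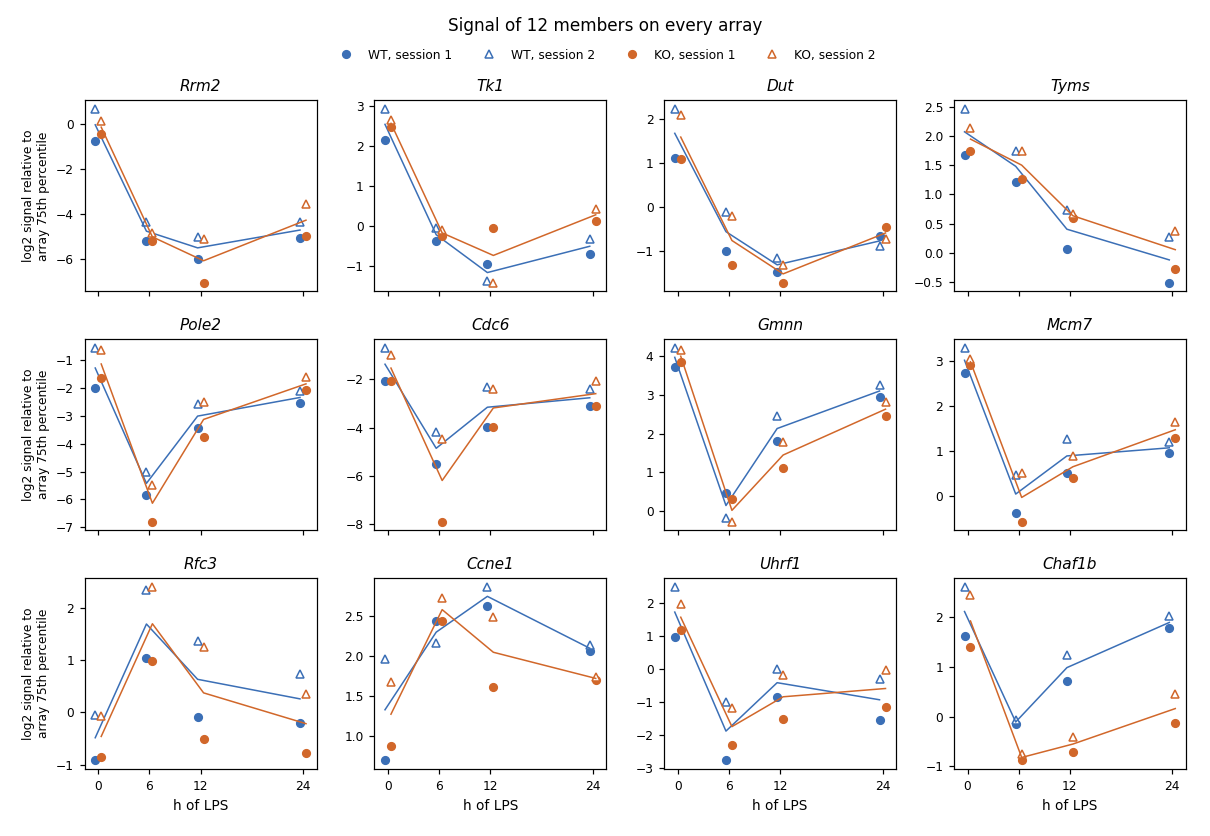
Log2 signal of 12 members on each of the 16 arrays against hours of LPS (circles: session 1; triangles: session 2; lines: group means; WT blue, KO orange; each panel has its own vertical scale). Rrm2, Tk1 and Dut stay low at 24 h, Pole2, Cdc6 and Gmnn rise again after 6 h, Tyms declines stepwise, and Rfc3 and Ccne1 are above 0 h at 6 h.

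Between 6 and 24 h many of the genes that had fallen rose again. The same 6 h arrays enter both the fall and the rise, so these are not separate evidence. Averaged over genotypes, 16 of 49 members were called higher at 24 h than at 6 h (32.7%, against 14.1% of all genes) and 2 lower, Pcna and Tyms (against 12.9%). With the session term the counts were 29 higher (against 22.4%) and 5 lower (against 26.4%). The median change of the members was 0.73, and that of all genes -0.15. Gmnn, measured on all arrays, rose by 2.79 ± 0.27 (adjusted p = 8.37e-05). Cdc6, for which 2 of the 4 arrays of 6 h were well above background, changed by 2.83 ± 0.76 as measured (adjusted p = 0.0198, but up to 0.071 without any of 4 arrays). Calls that held with any 1 array left out were those of Orc2, Gmnn, Pold1, Pole2, Rfc1, Rfc2, Rfc4, Chaf1a, Chaf1b and Dnmt1 among the higher genes and of Tyms among the lower. None of the 5 deoxynucleotide synthesis genes was called higher. Pcna fell by 1.22 ± 0.37 (adjusted p = 0.0345), a call that was lost with quantile normalization (adjusted p = 0.163), with scaling to the array median (adjusted p = 0.29) and without any of 4 arrays (adjusted p up to 0.114). Of all genes called between 6 and 24 h, 52.1% were higher, and 63.8% with scaling to the array median.

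Loss of miR-155 gave no call on a replication gene. In the comparison of KO with WT at 0, 6, 12 and 24 h, 0 of 49 members were called by limma, against 0%, 0%, 0.0113% and 0% of all genes. Averaged over the 4 times the count was also 0, against 0.017% of all genes, and 0 in the joint F test of the LPS response, against 0%. At an unadjusted p under 0.05 the counts were 0, 0, 1 and 1 at the 4 times, 1 in the average and 0 in the F test, against 0.244%, 0.832%, 0.946% and 1.21% of all genes at the 4 times, 1.36% in the average and 0.442% in the F test. Under the session term the adjusted counts were again 0, and the unadjusted ones were 0, 5, 6 and 3 at the 4 times, 3 in the average and 1 in the F test. Of all genes, 0.968%, 3.39%, 3.69% and 5.61% passed unadjusted at the 4 times with the session term, 5.49% in the average and 2.82% in the F test. The median averaged difference of the members was -0.09, and that of all genes -0.003. By time, the members' median was -0.03 at 0 h, -0.09 at 6 h, -0.25 at 12 h and 0.12 at 24 h. For all genes it was 0.01, -0.02, 0.02 and 0.0004.

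Chaf1b, the middle subunit of the chromatin assembly factor, was singled out because its genotype difference had been seen, so its values are a description. Its probe lies at chr16:93906269-93906329 (mm9). In WT it was 1.62 and 2.62 at 0 h, -0.15 and -0.06 at 6 h, 0.73 and 1.25 at 12 h and 1.78 and 2.02 at 24 h. KO cells gave 1.41 and 2.45 at 0 h, -0.88 and -0.76 at 6 h, -0.70 and -0.40 at 12 h and -0.12 and 0.45 at 24 h. The genotypes overlapped at 0 h and did not overlap at 6, 12 or 24 h. The KO minus WT difference was -0.19 ± 0.42 at 0 h, -0.72 ± 0.42 at 6 h, -1.54 ± 0.42 at 12 h and -1.74 ± 0.42 at 24 h. Within session 1 it was -0.21, -0.73, -1.43 and -1.90, and within session 2 it was -0.17, -0.70, -1.65 and -1.57.

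Both genotypes fell at 6 h, with changes of -2.22 in WT and -2.75 in KO. At 24 h the WT change was -0.22 ± 0.42, which turned positive with scaling to the array median, and the KO change was -1.76 ± 0.42 (adjusted p = 0.0251, but up to 0.197 without any of 3 arrays). The KO change minus the WT change was -0.53 ± 0.60 at 6 h, -1.35 ± 0.60 at 12 h and -1.54 ± 0.60 at 24 h. The joint F test over these 3 LPS times gave no call, with an adjusted p of 1 and an unadjusted p of 0.0856. Averaged over times the genotype difference was -1.05 ± 0.21. By p-value it stood at place 8 of 17659 genes (adjusted p = 0.9999), and at place 5 with the session term (adjusted p = 0.0628). With the slide as a block the difference was -1.04 (adjusted p = 0.388). No other member had an averaged difference under -0.51 or above 0.32, the values of Orc1 and Tk1. Its partner Chaf1a had an averaged difference of -0.16 ± 0.26. On the same chromosome as Mir155, number 16, the array's annotation also places Chaf1b, Cdc45, Rfc4 and Mcm4, whose averaged differences were -1.05, -0.27, -0.09 and -0.06. Their probes start at 93906269, 18793399, 23114016 and 15624372 (mm9), and miR-155 starts at 84714143 (GRCm38.p6). Chaf1b is thus the nearest of these members to Mir155, and the others lie far from it. Whether position bears on the difference was not tested.

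**Figure D5:**
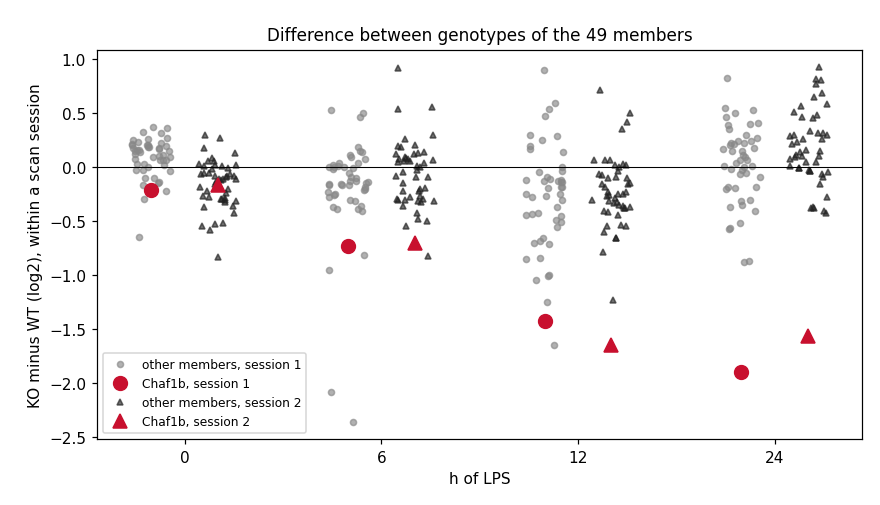
KO minus WT difference in log2 signal at 0, 6, 12 and 24 h of LPS for each member, within session 1 (circles) and session 2 (triangles); Chaf1b is in red and the other 48 members in grey and black. Chaf1b lies among the others at 0 h and is the lowest member in both sessions at 24 h, at -1.90 and -1.57.

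Gene lists beside the members are given for WT at 6 h unless another time is named. Of 39 other replication factors, 15 were called lower and 2 higher, with a median change of -0.69, and 20 and 5 with the session term. These compare with 12.8% of all genes called lower and 12.6% called higher, and 22% and 23.6% with the session term. The list's shares were 38.5% and 5.13%, and 51.3% and 12.8%. Cdc25b, a phosphatase of mitotic entry held in that list, changed by -5.36 in WT at 6 h. Of 27 regulators of the passage from G1 to S phase, 11 were called lower (40.7%) and 4 higher (14.8%), and 14 and 4 with the session term. E2f2, one of the E2F factors, changed by -6.25. Of 34 mitosis genes, 27 were called lower (79.4%) and 1 higher, and 28 and 3 with the session term, with a median of -3.21 at 6 h and -3.48 at 24 h in WT. Plk1, a mitotic kinase, changed by -4.63 and -5.41 at these times. From 6 to 24 h, 5 mitosis genes were called higher (14.7%, against 14.1% of all genes) and 9 lower (26.5%, against 12.9%), and with the session term 7 (20.6%, against 22.4%) and 10 (29.4%, against 26.4%). Of 38 other enzymes of nucleotide metabolism, 5 were called higher (13.2%) and 6 lower (15.8%), both near the share of all genes, and 7 (18.4%) and 14 (36.8%) with the session term. Cmpk2, a mitochondrial nucleotide kinase, changed by 8.82, and Samhd1, which degrades deoxynucleotides, by 4.23.

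Markers of other cells that such cultures can hold were read on the same arrays. Of 10 marrow progenitor markers, 8 were tested, and Kit and Elane were not above background on both arrays of any group. In WT at 6 h Gfi1 was called higher and Sox4 lower (12.5% each, against 12.6% and 12.8% of all genes). At 24 h 1 was called higher and 1 lower in WT (12.5% each, against 5.61% and 5.42%). With the session term these were 1 and 3 (12.5% and 37.5%, against 13.3% and 14.1%). The summed log2 level was -0.63 and 1.13 on the 0 h arrays, 1.69 to 1.85 at 6 h, -0.52 to -0.07 at 12 h and -2.16 to -1.79 at 24 h. The KO arrays gave -0.95 to 0.76, 1.28 to 2.10, -0.04 to 0.88 and -1.43 to -1.03. Of 7 erythroid markers, 3 were tested. Of these 2, Epor and Tfrc, were called lower at every LPS time in both genotypes (66.7%, against 4.94% to 13.8% of all genes). Hbb-b1, Alas2 and Klf1 did not pass the background test in any group. The summed level of the tested markers was 2.27 to 3.20 in WT at 0 h and 0.74 to 1.31 at 6 h, and 2.47 to 3.30 and 1.16 to 1.24 in KO. It was between -0.68 and 0.57 at 12 and 24 h in both genotypes. Of 8 neutrophil markers, 7 were tested. None was called without the session term. With it 4 were called lower at 24 h in WT and in KO (57.1%, against 14.1% and 12.5% of all genes). From 6 to 24 h it called 5 lower (71.4%, against 26.4%). Summed levels were 1.74 to 5.65 in WT at 0 h, 0.63 to 5.47 at 6 h, 0.41 to 4.88 at 12 h and -0.54 to 3.32 at 24 h. In KO they were 2.10 to 5.01, 0.92 to 4.59, 1.0 to 4.23 and -0.29 to 3.50. Of 8 B cell and 7 T and NK cell markers, 4 each were tested (not Cd79a, Pax5, Igll1, Ebf1, Cd3d, Cd8a or Ncr1). In WT at 6 h only Lck was called without the session term. With it 1 B cell marker (25%) and 2 T and NK cell markers (50%) were called higher, against 23.6% of all genes. The summed B cell level was between -2.08 and 0.15 on all arrays. That of the T and NK cell markers was between -3.43 and -1.21 at 0 h, 0.81 and 2.25 at 6 h, -0.77 and 0.31 at 12 h and -2.85 and -1.69 at 24 h. Of 6 stromal markers, 5 were tested. In WT at 6 h 0 were called, and 1 higher with the session term (20%, against 23.6%), with summed levels between -0.59 and 1.34. The part of these cells in the results was not tested.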

How the data were processed

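Single-colour (Cy3) Agilent arrays were read with Agilent Feature Extraction 10.5.1.1, per the file headers, and the deposited scanner files give each spot's processed signal, a background-corrected intensity. The authors' deposited table of log2 values has 1 common upper quartile on all arrays and correlated with the scanner values at r = 1. Outlier spots (61 to 108 per array) and 1639 control spots were left out, spots of a probe were averaged on the log2 scale, and each array was centred on its 75th percentile. Of 41077 probes with values on all arrays, 26855 were well above background on both arrays of at least 1 group. The brightest probe stood for each gene (17659 genes). Of the members, 48 carry their listed name in the scanner files and Cdc45l its current symbol; 1 Mcm3 probe that is named differently in the files of the 2 sessions was left out.

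The 8 group means were estimated by limma 3.58.1 (R 4.3.3; 8 residual and 2.29 prior degrees of freedom), adjusted by Benjamini-Hochberg, and tested on simulated data. Same-numbered arrays deviated together in all 28 pairs of groups (r = 0.40 to 0.84) and share a scan session, so a fit with the session is given beside the other. Where a group was not well above background on any array, its fold was taken with a floor on dim signals. Each dim array kept its measured signal or, if that was higher, was given the lowest signal that passed the software's background test on that array. Such a fold is not a strict minimum. Probe positions are mm9, per the file headers, and promoter and microRNA positions GRCm38.p6. Array values were given, by rule, for the 8 members with the largest mean fall, the 3 with the most positive mean change, the largest mover of each of 9 roles, the 3 largest changes from 6 to 24 h, the 4 smallest averaged genotype p-values, the 2 smallest F test p-values and Chaf1b. Tyms and Pcna were added after their values were seen. The members, roles, gene lists and rules were chosen with earlier results of these data known.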

Additional observations from a re-analysis of the deposited data

Results flagged for a closer look

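Rfc2, a clamp loader subunit, moved in opposite directions in the genotypes at 12 h of LPS. In WT its change from 0 h was 0.15 in session 1 and 0.13 in session 2. In KO it was -0.51 and -0.54. The KO change minus the WT change was -0.67 ± 0.38 (unadjusted p = 0.107, limma), and the adjusted p of the joint F test over the 3 LPS times was 1. The opposite direction within both sessions is what drew attention to it, and it was lost with quantile normalization, where the WT change was -0.44 and the KO change -0.98. At 6 h both genotypes changed downwards, by -0.74 and -1.06.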

How the results depend on the processing

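Under the 9 alternatives and with each of the 16 arrays left out in turn, 287 counts stayed within 1.5 times the value given, and 38 did not. The 287 include the counts of KO against WT, which were 0 in every setting and so could not show stability. The alternative with the authors' deposited table repeats the scanner values. Signs of single members could change, and with scaling to the array median 7 of them did so in KO at 24 h. With the session as replicate block the members called were 39, 33 and 23 in WT at 6, 12 and 24 h, 41, 37 and 24 in KO, and 34 from 6 to 24 h, against 22, 18, 8, 25, 20, 8 and 18 without it. Every call made without the session was also made with it. With the slide as a block the counts were 35, 31, 22, 39, 32, 20 and 32. Calls over all genes rose with it as well. In the same order, 4006, 2607, 2784, 4176, 2791, 2357 and 4562 of all 17659 genes were called lower. Called higher were 4423, 2677, 2415, 3987, 2738, 2056 and 3712. Scaled to the array median the member counts were 13, 3, 2, 14, 5, 1 and 10. In the same order, 1461, 886, 534, 1434, 1081, 482 and 1106 of all 17659 genes were called lower. Called higher were 1637, 1295, 773, 1571, 1165, 611 and 1949. Counted in either direction, the share of members was then below that of all genes at 12 and 24 h in both genotypes. At 6 h it was above. This scaling moved the median change of all genes from -0.01 to 0.29 in WT at 12 h and from -0.03 to 0.33 at 24 h. Relative to the median of all genes, 45, 39 and 42 members were lower in WT and 44, 44 and 43 in KO. These counts are the same under either scaling by construction, since the scalings differ only by a constant on each array. For KO at 24 h the count was 13 with quantile normalization, where 1048 of 17659 genes were called lower and 952 higher. It was 5 with no filter on dim probes, where 666 of 27588 genes were called lower and 675 higher. With 1 array left out the counts ran from 13 to 23, 5 to 17 and 2 to 9 in WT, from 14 to 26, 12 to 20 and 0 to 8 in KO, and from 13 to 19 between 6 and 24 h. Counts for KO against WT were 0 throughout. The averaged Chaf1b difference ran from -0.92 to -1.18 with 1 array left out, with adjusted p from 0.645 to 1.

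With 2 arrays a group the number of arrays limits the precision. Members near background, such as Cdc6, Cdc45, Pole2, Rrm2 and Ccne2, have smaller changes with normexp background correction, where Rrm2 in WT at 6 h moved from -4.75 to -2.25. Orc1 turned positive with it in WT at 6 h (0.05) and 12 h (0.12) and in KO at 6 h (0.06), none of them a call.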
